A study of Mus musculus with 4 samples.

Results

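The Desulfovibrionaceae are a family of anaerobic bacteria of the phylum Desulfobacterota, and Mailhella is 1 of the 3 genera of the family in these mice. All entries of the composition table whose family field begins with this name were taken and summed by genus. There were 4 such entries among 488 taxa, and they made up 3 of 316 genera. Desulfovibrio_R_446353, called Desulfovibrio here, was held by an entry named Desulfovibrio_R_446353 trichonymphae (4770 recovered reads) and an entry with no species name (335 reads). Mailhella was held by an entry named Mailhella massiliensis (2249 reads) and Bilophila by an entry named Bilophila wadsworthia (975 reads). All 3 genera were present in at least 20% of day 4 samples and entered the tests, in which 95 genera were compared.

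Members of the family respire sulfate or related sulfur compounds with hydrogen or organic acids from other gut bacteria and release hydrogen sulfide, a gas that the colon lining must detoxify. Desulfovibrio is the classical sulfate reducer of the gut. Bilophila uses the sulfite freed from taurine, an amino acid derivative that reaches the gut bound to bile acids. The cell envelope of the family is Gram-negative, and vancomycin, which binds cell wall precursors, does not readily cross the outer membrane of Gram-negative bacteria. Sulfide, sulfate and bacterial load were not measured here.

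Stool of wild-type C57BL6/J mice aged 8 to 12 weeks, kept on standard chow in specific-pathogen-free housing, was sequenced for the V4 region of the 16S rRNA gene. Mice received ampicillin (a beta-lactam), metronidazole (a drug active on anaerobes), neomycin (an aminoglycoside), vancomycin (a glycopeptide), a mix of these 4, or the vehicle, phosphate-buffered saline (PBS). A treatment was 2.5 mg in a volume of 100 µl, given by mouth (PO), into the peritoneum (IP) or into a vein (IV), 2 times daily on 3 full days and a last time on day 4, and the animals were killed 4 hours later. Which mice shared a cage is not given in the labels. The groups at day 4 held 5 PO, 5 IP and 6 IV samples of PBS, 5, 2 and 4 of ampicillin, 6, 6 and 6 of metronidazole, 4, 6 and 4 of neomycin, 6, 5 and 6 of vancomycin, and 4, 3 and 6 of the mix. Values are percent of the reads of a library. A share can fall because other bacteria rose, and a change in the number of cells cannot be told apart from a change in the share.

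The 198 libraries, 107 of day 0 and 91 of day 4, had been sequenced in 2 runs, ok122 and SB1, and run SB1 held 12 libraries, all of day 4. Day 0 libraries were shallower, with a median of 7289 recovered reads and 24 of 107 under 1000, against a median of 23566 and 4 of 91 under 1000 at day 4. The shallow day 4 libraries were mix IP replicate 3 (30 reads), mix IV replicate 5 (65 reads), neomycin IP replicate 4 (70 reads) and mix PO replicate 2b (556 reads). Every call of the family and its genera against PBS at day 4 kept its direction and its side of the threshold without these 4. A genus at 0 may lie under a limit of 3 reads of the library, and this limit is given beside the zeros that a comparison rests on. Replicates 1 and 5 of vancomycin IP, and 3 and 4 of ampicillin IV, could not be told apart from sampling noise (chi-square test, p = 0.361 and 0.154). Each pair was counted as 1 sample. P-values measure the spread between these samples, which are of different mice by their names.

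The family was a minor part of the stool before treatment. At day 0 it held 0.220% of reads (SD 0.233, n = 107 libraries), and 80 of 107 libraries had reads of it. Desulfovibrio made up most of this, with 0.188% of reads (SD 0.212) and reads in 79 of 107 libraries. Bilophila had reads in 37 of 107 and Mailhella in 10 of 107. Detection moved with depth. In the 45 day 0 libraries of at least 10000 reads, Desulfovibrio was found in 45 (100%, exact 95% interval 92.1 to 100%), Bilophila in 29 (64.4%, 48.8 to 78.1%) and Mailhella in 7 (15.6%, 6.49 to 29.5%). The highest Mailhella level of any day 0 library was 0.0556%, and the median over the libraries with reads was 0.0230%, so that at day 0 it was close to what such depths can show.

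In mice given PBS all 16 day 4 samples had Desulfovibrio, with a mean of 0.130% (SD 0.163) and a median of 0.0660%. Bilophila was found in 10 of 16 at a mean of 0.0293% (SD 0.0738) and Mailhella in 8 of 16 at a mean of 0.00687% (SD 0.00945). The highest Mailhella level in any PBS sample was 0.0307%. The median depth was 37115 reads in these samples against 11873.5 at day 0 in the 18 mice later given PBS, of which 1 had Mailhella, so detection on the 2 days is not comparable. Over all 91 day 4 libraries, 32 had all 3 genera, 17 had 2, 30 had 1 and 12 had none.

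Mailhella was highest in stool of mice given vancomycin by vein or into the peritoneum, and it was not found in mice given vancomycin by mouth. It rose to 0.238% of reads (SD 0.132, n = 6) with vancomycin IV against 0.00675% (SD 0.0124, n = 6) with PBS IV, and to 0.659% (SD 1.35, n = 5) with vancomycin IP against 0.00328% (SD 0.00526, n = 5) with PBS IP. With vancomycin PO it was at 0 in 6 of 6 samples. These were the only calls for Mailhella among 15 comparisons of an antibiotic and route with PBS of the same route.

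**Figure D1:**
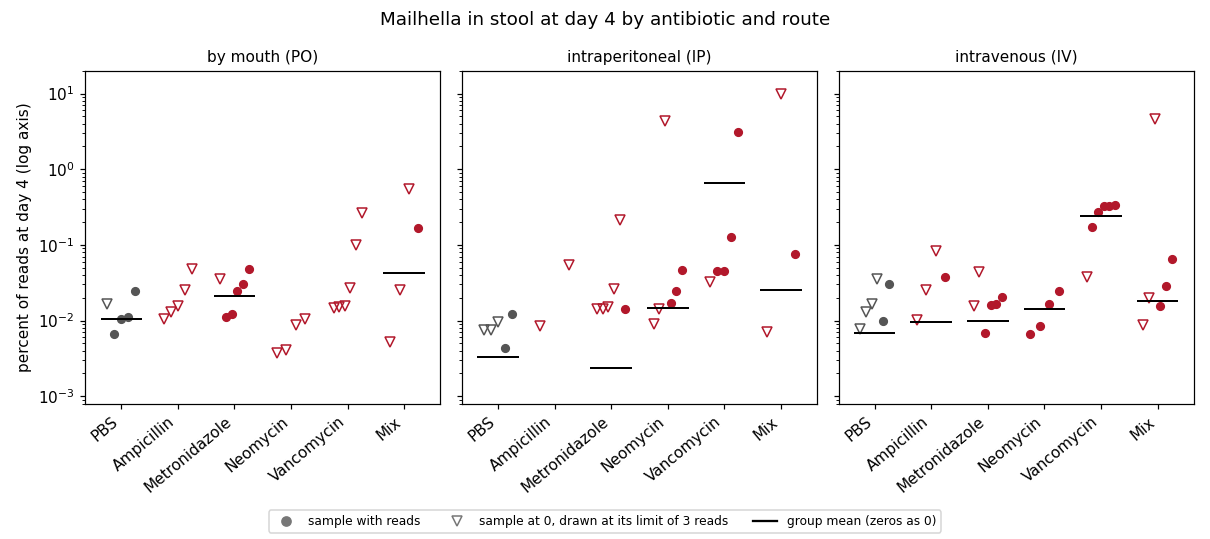
Percent of reads from Mailhella in each day 4 sample (log axis), with 1 panel per route and 1 column per antibiotic. Filled points are samples with reads, open triangles are samples at 0 drawn at the limit of 3 reads of their library, and lines are group means with zeros counted as 0. In vancomycin IV, 5 of 6 samples lie at 0.170% or above, over all PBS samples.

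With vancomycin IV the samples were at 0.322%, 0.170% and 0 in run ok122 (76, 17 and 0 reads) and at 0.331%, 0.274% and 0.333% in run SB1 (141, 420 and 77 reads). The PBS IV samples were at 0.0307%, 0 and 0.00975% in run ok122 and at 0 in all 3 of run SB1. The vancomycin sample at 0, replicate 3, had 7877 reads and a limit of 0.0381%, and the other 5 samples were above every PBS sample. The log2 change on the scale of log2(percent + 0.01), used for all log2 changes here and smaller than the true change of rare genera, was 3.54 (SE 0.71, limma, adjusted p = 5.59e-05). Of the 95 genera 42.1% were called in this comparison and 4.21% were called higher, so Mailhella was 1 of 4 genera that rose, while 36 fell. On a centred log-ratio, which sets each genus against the mean log value of its library, 12 genera rose and 18 fell, the median over all genera was 0.25 in place of -1.14, and Mailhella was still called (4.93, adjusted p = 1.01e-07).

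In the 3 vancomycin IV samples of run SB1 Mailhella averaged 0.312% against 0 in PBS (exact permutation p = 0.10, the smallest that 3 samples against 3 allow). In the 3 of run ok122 it averaged 0.164% against 0.0135% (exact p = 0.40), and with run ok122 alone in the fit the log2 change was 2.07 and was not past the threshold (limma, adjusted p = 0.132). Over both runs the mean percent differed by 0.232 percentage points (exact permutation p = 0.0152, and 0.114 after adjustment over the 15 comparisons).

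With vancomycin IP the 6 libraries were at 0.0521%, 0.0455%, 3.08%, 0.126%, 0.0385% and 0 in order of replicate number, the first and the fifth being averaged. PBS IP samples were at 0, 0.00431%, 0.0121%, 0 and 0. Replicate 3, with 968 reads of Mailhella, was far above the rest, and replicate 6, at 0, had 9179 reads and a limit of 0.0327%. Of 5 samples, 4 were above all PBS samples. The log2 change was 3.06 (SE 0.78, limma, adjusted p = 0.00241), in a comparison that called 25.3% of genera and 3.16% as higher. On the centred log-ratio 6 genera rose and 5 fell, against 3 and 21, and Mailhella was among those called (4.03, adjusted p = 0.000118). Without replicate 3 the change was 1.84 and was not past the threshold (limma, adjusted p = 0.0600). The exact test of the mean difference gave p = 0.0476, or 0.143 after adjustment.

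The zeros of vancomycin PO do not show a fall. These libraries held 1151 to 20443 reads, and their limits of 0.0147% to 0.261% were all above the mean of PBS PO, 0.0106% (SD 0.00908, n = 5), in which 4 of 5 samples had reads of 0.00671% to 0.0248%. A fall from that level was not detectable in a single library at this depth. Over the group, 0 of 74815 reads were of Mailhella. The exact permutation test of the mean percent, with zeros as 0, gave p = 0.0152, or 0.114 after adjustment over the 15 comparisons. A level like the mean of vancomycin IV would have been seen in 5 of the 6, whose limits were 0.101% or less. Counting zeros as 0, the effect of vancomycin PO on Mailhella lay below that of vancomycin IV, with a log2 difference of -4.47 (SE 1.03, interaction contrast in limma, adjusted p = 0.00132; 9.47% of genera called). It lay below that of vancomycin IP, with a difference of -3.99 (SE 1.08, adjusted p = 0.0143; 12.6% of genera called). In both, the PO effect itself was -0.93 and came from samples that were all at 0. With zeros set to the limit of 3 reads the differences were -1.84 (adjusted p = 0.862) and -1.83 (adjusted p = 0.795), and neither passed. In run ok122 alone the difference from IV was -3.0 (adjusted p = 0.113) and that from IP was still called (-3.99, adjusted p = 0.00916), and on the centred log-ratio they were -3.65 (adjusted p = 0.0125) and -2.76 (adjusted p = 0.0881). Within mice both passed (-3.96, adjusted p = 0.0107, and -3.75, adjusted p = 0.0118), but with at least 1000 reads on both days neither did (-3.21, adjusted p = 0.0994, and -2.85, adjusted p = 0.245). The IP and IV effects differed by -0.48 (SE 1.06, adjusted p = 0.891), a contrast in which 0% of genera were called.

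Mailhella was also higher with vancomycin IV than with the other antibiotics by vein, and higher with vancomycin IP than with 3 of the 4 others IP. Against vancomycin IV the log2 difference was -3.47 for ampicillin IV (SE 0.80, limma, adjusted p = 0.00116; 4.21% of genera called) and -3.18 for metronidazole IV (SE 0.71, adjusted p = 0.000178; 45.3% called). It was -2.83 for neomycin IV (SE 0.80, adjusted p = 0.00239; 54.7% called) and -3.00 for the mix IV (SE 0.71, adjusted p = 0.00593; 7.37% called). The mix holds vancomycin at an amount the labels do not give. All IV samples of these other antibiotics were of run ok122, while those of vancomycin IV were split between the runs. With vancomycin IV, Mailhella averaged 0.312% in 3 samples of run SB1 and 0.164% in 3 of run ok122. The part of the run in these contrasts was not tested. Against vancomycin IP the differences were -3.40 for ampicillin IP (adjusted p = 0.0161; 18.9% called), -3.18 for metronidazole IP (adjusted p = 0.000388; 32.6% called) and -2.44 for neomycin IP (adjusted p = 0.00930; 29.5% called). The mix IP differed from vancomycin IP by -2.37 (SE 0.90) and was not past the threshold (adjusted p = 0.152; 0% called, with 3 samples of the mix). These contrasts share the vancomycin samples. Vancomycin IP replicate 3 was at 3.08% and the other libraries of its group at 0 to 0.126%, while neomycin IP samples were at 0 to 0.0466%. Both ampicillin IP samples were at 0, 1 of them with a limit of 0.0542%. The contrasts between antibiotics were not fitted without replicate 3.

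The other groups lay within a narrow range of low levels. After vancomycin IP and IV the order of the means was the mix PO (0.0422%, SD 0.0844), the mix IP (0.0250%, SD 0.0432), metronidazole PO (0.0209%, SD 0.0167), the mix IV (0.0182%, SD 0.0256), neomycin IP (0.0147%, SD 0.0188), neomycin IV (0.0141%, SD 0.00829) and PBS PO (0.0106%, SD 0.00908). Then came metronidazole IV (0.00994%, SD 0.00889), ampicillin IV (0.00949%, SD 0.0190), PBS IV, PBS IP and metronidazole IP (0.00235%, SD 0.00577), and 4 groups were at 0. Neighbours in this order differed by less than the SD of the group above, vancomycin IP and IV included, except for vancomycin IV over the mix PO. In the mix PO all reads came from replicate 3, at 0.169% with 76424 reads. The other 3 samples of the mix PO were at 0, and in them genera seen in reagents, on skin or in food held 68.4% to 96% of reads.

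Mailhella was at 0 in all samples of ampicillin PO (5), neomycin PO (4) and ampicillin IP (2) as well. For neomycin PO, with 29006 to 81657 reads, the mean limit of 0.00669% was below the PBS PO mean, which makes it at least 1.58-fold lower, or 1.05-fold without PBS PO replicate 4, and the limma test did not pass (log2 -0.93, SE 0.83, adjusted p = 0.407). For ampicillin PO and ampicillin IP the limits, 0.0105% to 0.0481% and 0.00856% to 0.0542%, were on average above the PBS means and allow no fold. Metronidazole left Mailhella with values that did not pass by any route, with log2 changes of 0.49 (PO), -0.12 (IP) and 0.35 (IV), each with an SE of 0.71 to 0.75. The background there was 4.21% of genera called with metronidazole PO, 2.11% with IP and 2.11% with IV.

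Day 0 libraries of the same mice were set beside day 4. In the vancomycin IV mice Mailhella was at 0, 0.0297%, 0, 0, 0.0108% and 0 at day 0, with 407 to 37123 reads, and at day 4 it was higher in 5 of 6 and at 0 on both days in 1. In 1 of the 5, replicate 6, the day 0 limit of 0.737% was above the day 4 level of 0.333%, so a rise cannot be placed. In PBS IV mice Mailhella was higher at day 4 in 2 of 6 and at 0 on both days in 4. In 1 of the 2, replicate 3, the day 0 limit of 0.0282% was above the day 4 level of 0.00975%. The change within mice exceeded that of PBS mice by 3.03 (SE 0.76, limma, adjusted p = 0.00221; 24.2% of genera called), and by 2.62 (adjusted p = 0.0113) in mice with at least 1000 reads on both days. In vancomycin IP mice 5 of 6 were higher at day 4, or 4 of 5 with replicates 1 and 5 counted as 1, and the difference from PBS mice was 2.82 (SE 0.83, adjusted p = 0.0336; 4.21% called). Of their day 0 libraries, 4 held 2 to 357 reads, and with mice of at least 1000 reads on both days, 2 in this group, it was 2.26 and did not pass (adjusted p = 0.245).

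**Figure D2:**
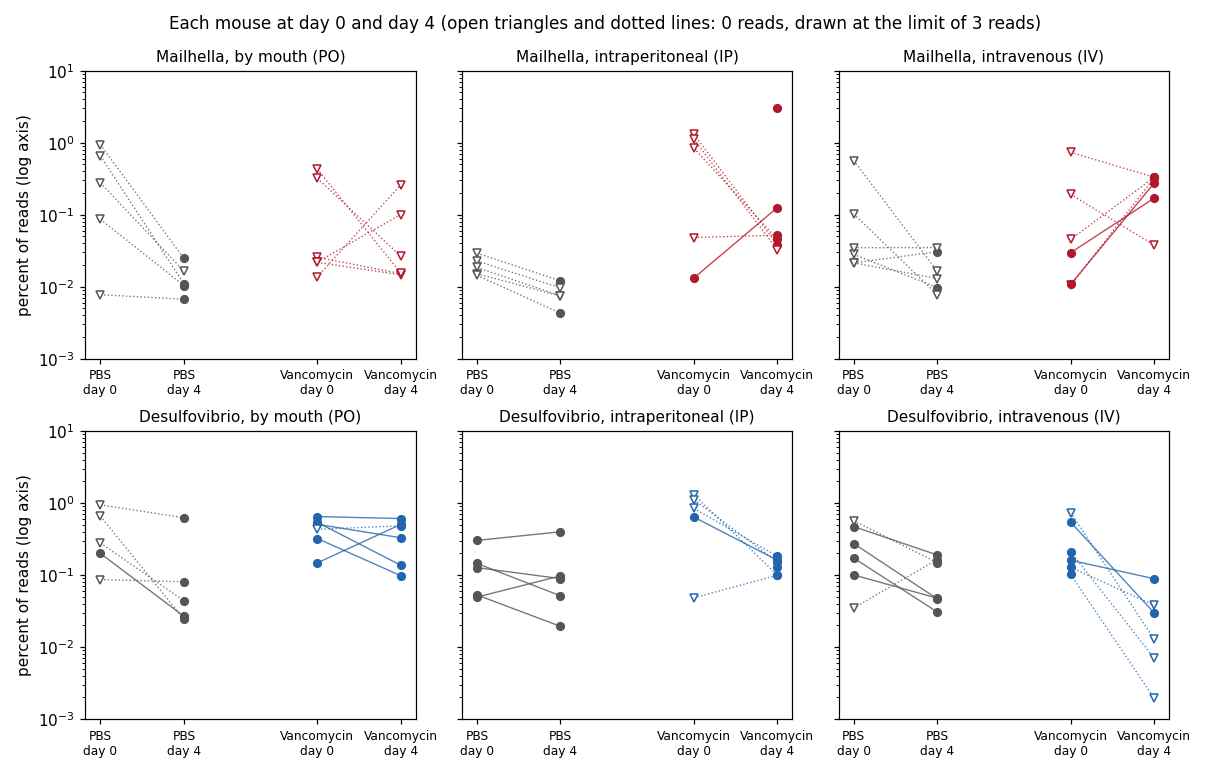
Percent of reads (log axis) at day 0 and day 4 of each mouse given PBS or vancomycin, for Mailhella (upper panels) and Desulfovibrio (lower panels), with 1 panel per route. Open triangles are zeros drawn at the limit of 3 reads, dotted lines join pairs with a zero, and a day 0 library of 2 reads is not drawn. With zeros counted as 0, Mailhella ended higher in 5 of 6 vancomycin IV mice. In 1 of them, replicate 6, the day 0 limit of 0.737% was above the day 4 level. Desulfovibrio ended lower in 5 of those 6.

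Desulfovibrio, the main genus of the family in PBS mice, moved mostly in other comparisons than Mailhella. Both were called with vancomycin IV, where Mailhella rose and Desulfovibrio fell. Desulfovibrio was lower than in PBS with ampicillin PO, neomycin PO, ampicillin IV, vancomycin IV and the mix IV, and higher than in PBS with vancomycin PO. The levels were 0.0124% (SD 0.0209, n = 5) with ampicillin PO and 0.00103% (SD 0.00205, n = 4) with neomycin PO against 0.160% (SD 0.261, n = 5) in PBS PO. By vein the levels were 0.00914% (SD 0.0125, n = 4) with ampicillin, 0.0198% (SD 0.0360, n = 6) with vancomycin and 0.0172% (SD 0.0153, n = 6) with the mix against 0.105% (SD 0.0704, n = 6) in PBS IV.

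**Figure D3:**
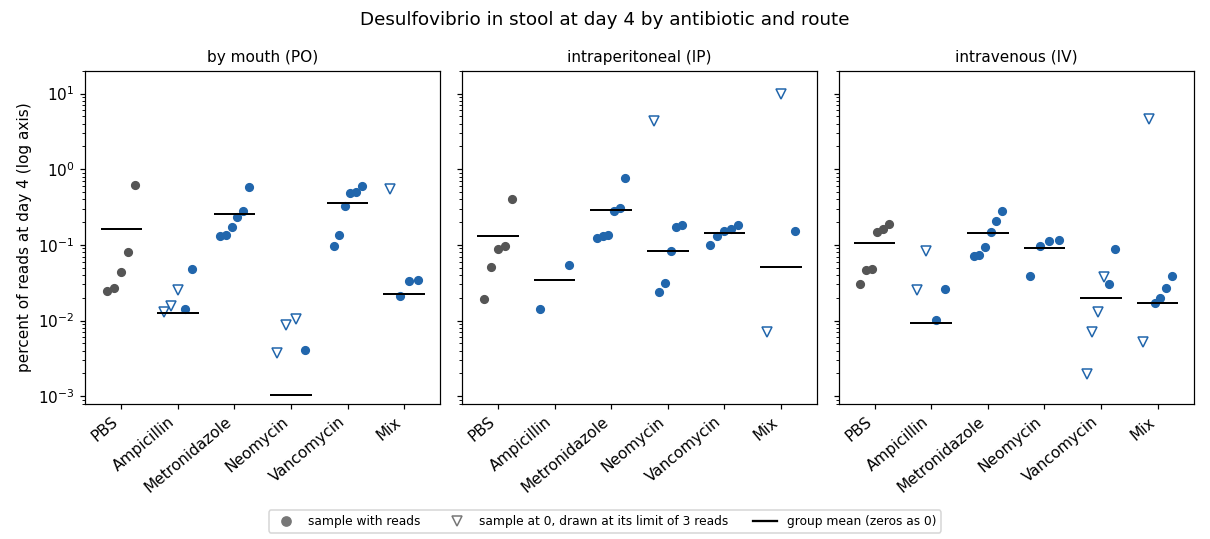
Percent of reads from Desulfovibrio in each day 4 sample (log axis), with 1 panel per route and 1 column per antibiotic. Filled points are samples with reads, open triangles are zeros drawn at the limit of 3 reads, and lines are group means. All 6 vancomycin PO samples had reads, from 0.0980% to 0.608%, and 3 of 4 neomycin PO samples were at 0.

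With neomycin PO the samples were at 0, 0, 0.00411% and 0, the value above 0 being 3 of 73020 reads. The PBS PO samples were at 0.0244%, 0.0441%, 0.0269%, 0.625% and 0.0806%. No neomycin sample reached the lowest PBS sample, and all limits were at or under 0.0103%. The log2 change was -2.93 (SE 0.85, limma, adjusted p = 0.00789) in a comparison that called 23.2% of genera. Without PBS PO replicate 4, at 0.625%, it was -2.20 and did not pass (adjusted p = 0.0669). In the same mice Desulfovibrio had been at 0.453%, 0.0620%, 0.139% and 0.436% at day 0. These values rested on 3, 4, 11 and 4 reads, in libraries of 662, 6455, 7915 and 918 reads. Desulfovibrio was lower at day 4 in 4 of 4 of these mice. With zeros counted as 0 it was higher at day 4 in 4 of 5 PBS PO mice and lower in 1. The difference from PBS within mice was -6.49 (SE 1.53, adjusted p = 0.00571; 12.6% of genera called). Of the PBS PO day 0 libraries 4 were at 0, with 318 to 3469 reads. Their limits of 0.0865% to 0.943% were each above the day 4 level of the same mouse, so a rise in these 4 mice cannot be placed. With at least 1000 reads on both days the difference was -4.16 and did not pass (adjusted p = 0.178).

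With ampicillin PO the samples were at 0, 0.0140%, 0.0481%, 0 and 0, or 7 reads in all. The zeros had limits of 0.0154%, 0.0255% and 0.0128%. Thus 3 of 5 samples lay below every PBS PO sample, replicate 3 lay among them, and replicate 4, whose limit is above the lowest PBS PO sample, cannot be placed. The change was -2.29 (SE 0.80, limma, adjusted p = 0.0126), and 55.8% of genera were called. Genera seen in reagents, on skin or in food made up 89.0% and 96.6% of reads in 2 of these libraries and at most 0.323% in the other 3. The part of this in the result was not tested beyond leaving those genera and taxa of no phylum out of the percent, where the change was -1.70 and did not pass (adjusted p = 0.126). Without PBS PO replicate 4 it was -1.56 (adjusted p = 0.107), and within mice it was -3.46 (SE 1.44, adjusted p = 0.0442; 44.2% of genera called). Of the 5 mice, 2 were lower at day 4, 1 was higher and 2 were at 0 on both days. The 1 that was higher, replicate 3, had a day 0 zero with a limit of 0.659%, above its day 4 level, and cannot be placed. The PBS PO mice of that comparison had the shallow day 0 libraries given for neomycin.

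By vein the PBS samples had 0.0307%, 0.0478%, 0.190%, 0.149%, 0.0468% and 0.164% of Desulfovibrio. Ampicillin IV samples were at 0, 0, 0.0265% and 0.0101% (the third the mean of 2 libraries). The zeros had limits of 0.0249% and 0.0829%, so 3 of 4 samples lay under the lowest PBS sample and the one with the higher limit cannot be placed. The change was -2.53 (SE 0.82, limma, adjusted p = 0.00794), and 42.1% of genera were called. For the mix IV the lowest sample was at 0, the median at 0.0185% and the highest at 0.0393%, and 4 of 6 were below all PBS samples (log2 -2.05, SE 0.73, adjusted p = 0.0162). There 43.2% of genera were called. A further sample, with 65 reads and at 0, could have held up to 4.62% and cannot be placed. Within mice the change with the mix IV was -3.21 (SE 1.38, adjusted p = 0.0498; 46.3% called), and 5 of 5 mice were lower at day 4, 1 of them by way of the sample with 65 reads. With at least 1000 reads on both days it was -2.0 and did not pass (adjusted p = 0.236).

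Desulfovibrio was 1 of 16 genera of 95 that fell as a share with neomycin PO, 1 of 47 with ampicillin PO, 1 of 35 with ampicillin IV, 1 of 36 with the mix IV and 1 of 36 with vancomycin IV. The median log2 change over all 95 genera was -1.02 with neomycin PO, -1.86 with ampicillin PO, -1.65 with ampicillin IV, -1.46 with the mix IV and -1.14 with vancomycin IV. On the centred log-ratio, where these medians lay between -0.16 and 0.25, Desulfovibrio was called with neomycin PO (-2.08, adjusted p = 0.0349) and with vancomycin PO (4.09, adjusted p = 8.03e-07) but not with ampicillin PO (-0.44), ampicillin IV (-0.86), the mix IV (-0.61) or vancomycin IV (-0.97).

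At day 4 Desulfovibrio was lower than in PBS with vancomycin by vein and higher than in PBS with vancomycin by mouth. With vancomycin IV it was at 0.0891%, 0.0299% and 0 in run ok122 and at 0 in all 3 samples of run SB1, whose libraries of 23142 to 153407 reads set limits of 0.00196% to 0.0130%. The same 3 samples held 0.274% to 0.333% of Mailhella. The change against PBS IV was -2.36 (SE 0.73, limma, adjusted p = 0.00596), and 4 of 6 samples were below all PBS samples, while replicate 3, at 0 with a limit of 0.0381%, cannot be placed. In run SB1 the mean was 0 against 0.120% (exact permutation p = 0.10, the smallest possible) and in run ok122 0.0397% against 0.0895% (exact p = 0.50). With run ok122 alone the log2 change was -1.19 (adjusted p = 0.416). Within mice 5 of 6 were lower at day 4 and 1 was at 0 on both days, and the difference from PBS was -2.96 (SE 1.31, adjusted p = 0.0863).

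With vancomycin PO the lowest Desulfovibrio sample was at 0.0980%, the median at 0.406% and the highest at 0.608%, with a mean of 0.360% (SD 0.208, n = 6). The range overlapped with PBS PO, whose highest sample was at 0.625%. The log2 change was 1.89 (SE 0.76, limma, adjusted p = 0.0255) in a comparison that called 66.3% of genera, and it fell short of the threshold when any of 6 of the 11 samples was left out (1.57 at the lowest, adjusted p = 0.0857, without PBS PO replicate 1). The exact test of the mean difference gave p = 0.186. Some of these mice already had high levels before treatment. At day 0 they were at 0.506%, 0.322%, 0.539%, 0.649%, 0 and 0.147%, and 4 of 6 were lower at day 4 and 2 higher. The mean of these mice was 0.361% at day 0 and 0.360% at day 4. Within mice the difference from PBS was turned, at -1.66 (SE 1.38, adjusted p = 0.303; 49.5% of genera called). Thus the higher level than PBS at day 4 was not matched by a rise from day 0 in 4 of the 6 mice. Of the PBS PO mice 4 had been at 0 at day 0, in the shallow libraries described for neomycin PO.

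The difference between the PO and IV effects of vancomycin on Desulfovibrio was 4.25 (SE 1.06, interaction contrast in limma, adjusted p = 0.00234), and 5.07 on the centred log-ratio (adjusted p = 2.83e-05). It did not pass with zeros at the limit of 3 reads (3.50, adjusted p = 0.241), in run ok122 alone (3.08, adjusted p = 0.128), within mice (1.3, adjusted p = 0.807) or within mice of at least 1000 reads on both days (1.49, adjusted p = 0.781). Its share of the family was 100% with vancomycin PO and 7.15% with vancomycin IV, where Mailhella held 85.9%. With vancomycin IP Desulfovibrio was at 0.145% (SD 0.0314, n = 5) against 0.131% (SD 0.153, n = 5) in PBS IP, a log2 change of 0.68 (SE 0.80, adjusted p = 0.574). The difference of 3.04 between the IP and IV effects was not past the threshold (SE 1.08, adjusted p = 0.193).

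Among the mice treated by mouth Desulfovibrio was lower with ampicillin than with vancomycin (log2 difference -4.18, SE 0.76, limma, adjusted p = 1.07e-05; 10.5% of genera called), and lower with neomycin than with vancomycin (log2 difference -4.82, SE 0.82, adjusted p = 1.65e-06; 35.8% called). For the mix against vancomycin it was -3.46 (SE 0.82, adjusted p = 0.000865; 13.7% called). The mix PO samples themselves were at 0.0333%, 0.0348%, 0 (limit 0.540%) and 0.0209% and did not pass against PBS PO (log2 -1.58, SE 0.85, adjusted p = 0.129; 36.8% of genera called). Within mice the mix PO was lower in 3 of 3, with a difference from PBS of -4.34 (SE 1.66, adjusted p = 0.0336; 33.7% called). For 1 of the 3, replicate 2b, the day 4 limit of 0.540% was above the day 0 level of 0.103%, so a fall cannot be placed. The PBS PO mice of that contrast had the day 0 zeros described for neomycin PO. In the 2 mice with at least 1000 reads on both days the difference was -2.53 and did not pass (adjusted p = 0.406). The part of the reagent, skin and food genera of the ampicillin PO and mix PO libraries in these values was not tested. At day 0 Desulfovibrio had averaged 0.361% in mice later given vancomycin PO. The day 0 mean was 0.132% for ampicillin PO, 0.277% for neomycin PO and 0.124% for the mix PO. The contrasts between antibiotics were not fitted within mice.

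Metronidazole, neomycin IP and neomycin IV brought no call for Desulfovibrio. With metronidazole it was at 0.255% (SD 0.167) PO, 0.292% (SD 0.249) IP and 0.145% (SD 0.0825) IV (n = 6 each), and all 18 samples had reads. The log2 changes were 1.48 (SE 0.76), 1.34 (SE 0.76) and 0.53 (SE 0.73), with adjusted p of 0.556, 0.441 and 0.915 in limma. With neomycin IP it was at 0.0821% (SD 0.0786, n = 6) and with neomycin IV at 0.0900% (SD 0.0352, n = 4), changes of -0.67 (SE 0.76) and -0.02 (SE 0.82). Neomycin IP called 0% of the 95 genera, with 7 at an unadjusted p under 0.05, and neomycin IV called 1.05%. Ampicillin IP, with 2 samples at 0.0542% and 0.0143%, and the mix IP, with samples at 0, 0.153% and 0 (limits of 0.00715% and 10% for the zeros), did not pass either (log2 -1.27 and -1.91, adjusted p = 0.297 and 0.105; 50.5% and 29.5% of genera called).

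**Figure D4:**
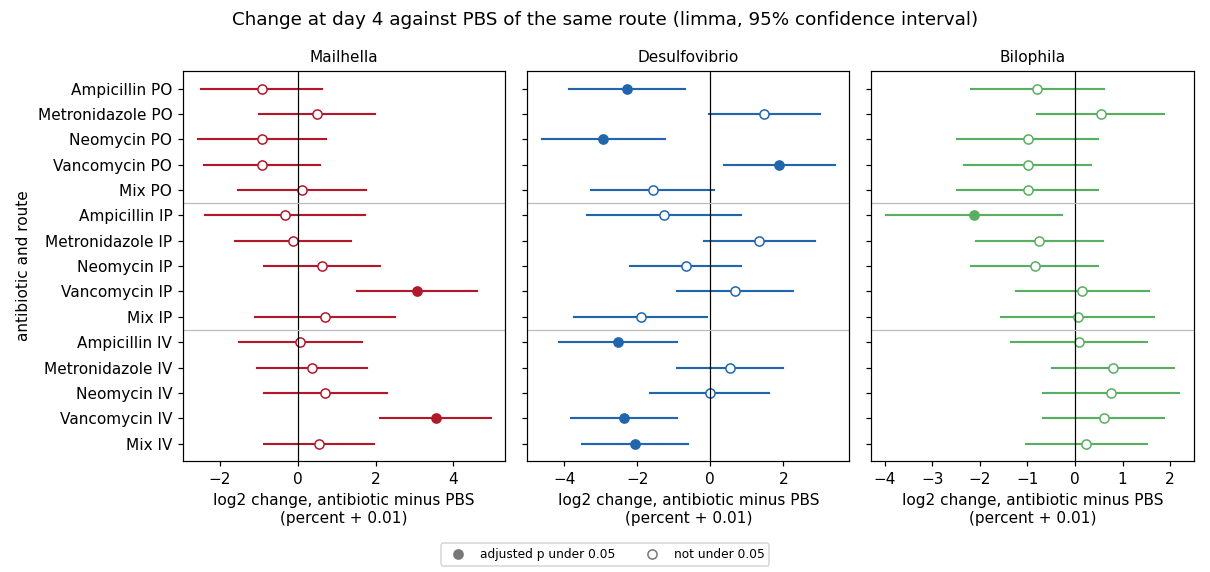
Log2 change at day 4, antibiotic minus PBS of the same route on the log2(percent + 0.01) scale, for the 3 genera over the 15 comparisons, with 95% confidence intervals from limma. Filled points had an adjusted p under 0.05. Mailhella has 2 filled points, both above 0, Desulfovibrio has 5 below 0 and 1 above 0, and Bilophila has 1 below 0.

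Bilophila, the taurine user, was scarce in most groups, and its 1 call rested on a small group. It was at 0 in both ampicillin IP samples against 0.0173%, 0.0323%, 0.302%, 0.00964% and 0.0125% in PBS IP (log2 -2.13, SE 0.93, limma, adjusted p = 0.0483). In this comparison 50.5% of genera were called. The limits of the 2 libraries were 0.0542% and 0.00856%, against a PBS mean of 0.0748% (SD 0.127). Without PBS IP replicate 3, at 0.302%, the mean of the limits was above the PBS mean, so no fold is given, and the change was -1.42 and did not pass (adjusted p = 0.193). The smallest exact permutation p that 2 samples against 5 allow is 0.0476, and the exact p here was 0.333.

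**Figure D5:**
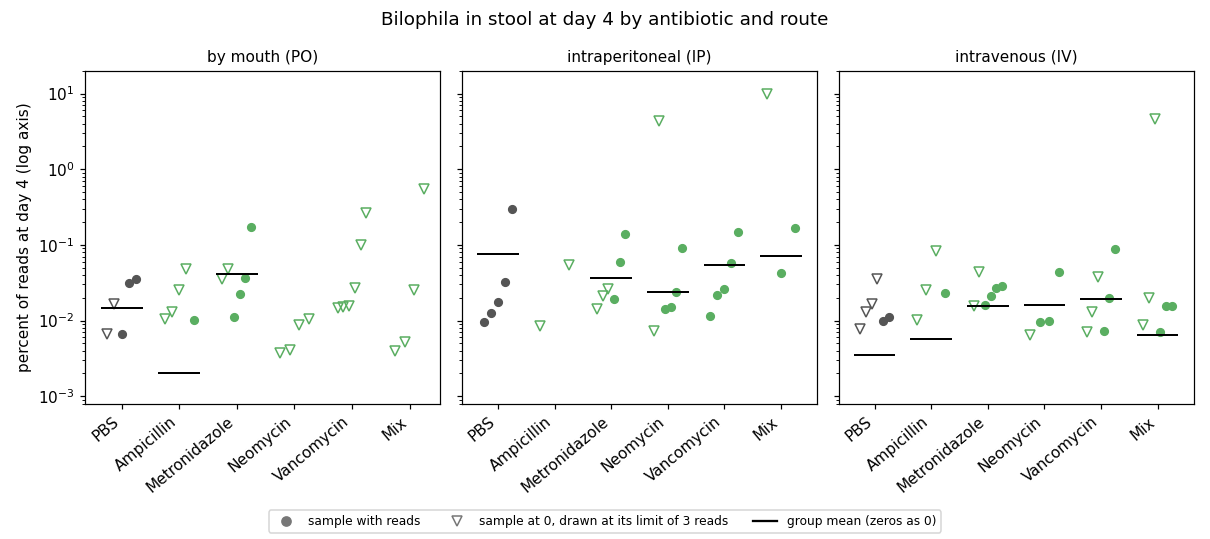
Percent of reads from Bilophila in each day 4 sample (log axis), with 1 panel per route and 1 column per antibiotic. Filled points are samples with reads, open triangles are zeros drawn at the limit of 3 reads, and lines are group means. By mouth, all samples of neomycin, vancomycin and the mix were at 0.

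By mouth Bilophila was at 0 in all samples of neomycin (4), vancomycin (6) and the mix (4), in 4 of 5 of ampicillin and in 2 of 5 of PBS. None of these comparisons passed, with log2 changes of -0.79 to -0.99 and adjusted p of 0.176 to 0.314 in limma. For neomycin PO the limits allow a bound of at least 2.20-fold below the PBS PO mean of 0.0147% (SD 0.0174, n = 5), or 1.41-fold without PBS PO replicate 4. For vancomycin PO and the mix PO the mean limits, 0.0723% and 0.143%, were above that mean. Unlike Mailhella, Bilophila had no call with vancomycin by any route, with 0.0534% (SD 0.0565, n = 5) IP and 0.0194% (SD 0.0350, n = 6) IV and log2 changes of 0.15 and 0.60 (SE 0.70 and 0.64). The difference between the 2 genera was not tested. The highest Bilophila sample of any vancomycin group, 0.149%, was the vancomycin IP library that also had the highest Mailhella.

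Summed over its genera, the family was called in 3 comparisons, all lower than PBS. It fell with neomycin PO (0.00103%, SD 0.00205, against 0.185%, SD 0.282; log2 -3.23, limma over 39 families, adjusted p = 0.0156; 17.9% of families called), with ampicillin PO (0.0145%, SD 0.0198; log2 -2.39, adjusted p = 0.0216; 59% called) and with ampicillin IV (0.0243%, SD 0.0422, against 0.115%, SD 0.0685; log2 -2.37, adjusted p = 0.0387; 38.5% called). The ampicillin IV call did not hold with replicate number as a block (log2 -2.32, adjusted p = 0.0533) or when any of 6 of its 10 samples was left out. With vancomycin IV the family total was 0.277% (SD 0.165) and did not pass (log2 0.77, SE 0.85), although 2 of its 3 genera were called, 1 higher and 1 lower. Mailhella was the leading genus of the family in 5 of 6 vancomycin IV samples. In PBS IV it led in 1 of 6, where it had as many reads as Desulfovibrio, 11 each.

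Other genera with sulfide-forming members were looked at as a list chosen with earlier results of these data known. Of 5 such genera in the table, 2 were present in enough samples, Escherichia_710834, which has members that free sulfide from cysteine, and Enterocloster. Escherichia_710834 rose with vancomycin PO, where Mailhella and Bilophila were at 0 (49.0%, SD 15.2, against 0.0838%; limma, adjusted p = 8.43e-08), and with vancomycin IV, where Mailhella rose too (16.3%, SD 12.9, against 0.00698%; adjusted p = 1.25e-05). The log2 changes of Escherichia_710834 were 10.53 and 8.07, and those of Enterocloster were -1.19 (adjusted p = 0.161) and -0.36 (adjusted p = 0.667) and did not pass, which puts the median of the pair at 4.67 and 3.85 beside medians of -1.96 and -1.14 over all 95 genera. Of all genera 7.37% were called higher with vancomycin PO and 4.21% with vancomycin IV. With vancomycin IP 0 of 2 changed, where 25.3% of all genera were called, and the median was -0.19 beside -1.01. Escherichia_710834 also rose with ampicillin IV, where 5.26% of genera were called higher, and Enterocloster rose with metronidazole PO and with metronidazole IP, where 2.11% were called higher in each, and 0 of 2 fell in any of the 15 comparisons.

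Genera with members that degrade sulfated mucin, a source of sulfate in the gut, numbered 4, and all were tested. With vancomycin IV 2 of 4 rose and 0 fell (median log2 3.37 beside -1.14 over all genera), with vancomycin IP 1 of 4 rose (1.44 beside -1.01), and with vancomycin PO 0 rose and 1 fell (-1.18 beside -1.96). Of all 95 genera, 4.21% were called higher with vancomycin IV, 3.16% with vancomycin IP and 7.37% with vancomycin PO. With vancomycin PO 56 of the 95 were called lower. Parabacteroides_B_862066 rose in both comparisons in which Mailhella rose, to 31.6% (SD 27.6) IV and 19.0% (SD 36.3) IP (limma, adjusted p = 2.06e-07 and 0.00382). Bacteroides_H was at 17.0% (SD 15.5) with vancomycin IV (adjusted p = 0.000600) and at 0.0130% (SD 0.0318) with vancomycin PO against 0.553% in PBS PO, where it fell (log2 -5.22, adjusted p = 0.000676). With ampicillin IV and neomycin PO 3 of 4 of these genera rose (Bacteroides_H, Parabacteroides_B_862066 and Phocaeicola_A_858004) while Desulfovibrio fell, beside 5.26% and 6.32% of all genera called higher. With the mix IV 1 of 4 rose, Parabacteroides_B_862066, beside 5.26%, and in the other 9 comparisons 0 passed. Of 3 genera in the table with members that use hydrogen in other ways, 0 were present in enough samples for a test.

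Across the 85 day 4 samples with at least 1000 reads, the genus most like Mailhella by rank was Bilophila (Spearman correlation 0.51, with both present in 32 samples), followed by Alistipes_A_871400 (0.39) and Bacteroides_H (0.38). For Bilophila these were 14-2 (0.54), Mailhella (0.51) and Lawsonibacter (0.50), and for Desulfovibrio unclassified Dehalobacteriaceae (0.53), Schaedlerella (0.48) and Eubacterium_J (0.48). These correlations are over samples that share groups, and depth sets which of the rare genera are at 0, so they are given as a description.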

How the data were processed

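The deposited composition table holds a signal scaled by the authors to 100000 per library, over 488 taxa, per the deposited values, and it was divided down to percent of reads. How reads were filtered, clustered and named is not given in the labels or file headers used here. Antibiotic, route, day, replicate number and run came from the authors' deposited sample sheets. The mouse was taken from the sample name, and 89 of 90 mice with both days had like annotation and entered the values within mice. Empty cells, 11.6% of the table, were read as 0. The read number behind each value was recovered from the smallest step of a library, and the table holds no counts, so no count model was fitted. In 183 of 198 libraries the smallest value was 2 reads. Limits of 3 reads and exact binomial intervals (95%) cover counting error only.

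Near-identical libraries of a group (chi-square test of recovered reads, p of at least 0.05) were averaged, which left 89 samples at day 4. Genera present in at least 20% of these were fitted with limma 3.58.1 (R 4.3.3) on log2(percent + 0.01), with 1 mean per group, a variance trend and Benjamini-Hochberg adjustment over 95 genera or 39 families per comparison. The threshold was 0.05. Contrasts between routes and between antibiotics came from the same fit. Mean percents were compared by two-sided exact permutation, adjusted over 15 comparisons. The members, the genus lists (sulfide, mucin, hydrogen, and a reagent, skin and food list of 8 genera in the table) and the rule for like genera (the 3 with the highest Spearman correlation for each member) were chosen with earlier results of these data known. Of the reagent, skin and food list, 1 genus, Burkholderia, was tested, and it was higher in 3 of the 15 comparisons, ampicillin PO, ampicillin IP and the mix PO. Alternatives varied the pseudocount, presence filter, depth, zeros, runs, near-identical libraries, samples in the fit, denominator, baseline, block and single samples.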

Additional observations from a re-analysis of the deposited data

Results flagged for a closer look

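A sample stood far from the others of its group, by its gap relative to the range of the group, in 17 of 42 combinations of a genus and a group. Chance marks about 1 in 20. Some samples recur under more than 1 genus, so the combinations are not independent. Many of them hold several zeros, beside which any sample with reads stands apart. For Mailhella the samples were vancomycin IP replicate 3 at 3.08%, the mix PO replicate 3 at 0.169%, ampicillin IV replicates 3 and 4 (counted as 1 sample) at 0.0379%, PBS IV replicate 1 at 0.0307% and metronidazole IP replicate 6 at 0.0141%. For Desulfovibrio they were metronidazole IP replicate 1 at 0.771%, PBS PO replicate 4 at 0.625%, metronidazole PO replicate 5 at 0.574%, PBS IP replicate 3 at 0.399%, vancomycin IV replicate 1 at 0.0891% and neomycin PO replicate 3 at 0.00411%. For Bilophila they were PBS IP replicate 3 at 0.302%, metronidazole PO replicate 1 at 0.175%, neomycin IP replicate 5 at 0.0899%, vancomycin IV replicate 1 at 0.0891%, ampicillin IV replicates 3 and 4 at 0.0228% and ampicillin PO replicate 1 at 0.0102%.

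The effect of vancomycin differed between routes by an interaction contrast in limma in 3 cases. For Mailhella the PO effect minus the IP effect was -3.99 on the log2 scale and the PO effect minus the IV effect was -4.47. For Desulfovibrio the PO effect minus the IV effect was 4.25. None of the 3 passed with zeros set to the limit of 3 reads (-1.83, -1.84 and 3.50) or within mice of at least 1000 reads on both days.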

How the results depend on the processing

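The rise of Mailhella with vancomycin IV kept its call in 14 of 15 other settings of the limma fit (log2 1.52 to 5.37) and in all 12 fits that left out 1 sample (3.33 to 4.35), and with vancomycin IP in 12 of 15. All values here are log2 changes against PBS of the same route with adjusted p in brackets, and the cause of a change was not tested. In run ok122 alone Mailhella was at 2.07 (0.132) for vancomycin IV and -0.93 for the mix PO, and Desulfovibrio at -1.79 (0.110) for ampicillin PO, -2.24 (0.0604) for ampicillin IV, -1.76 (0.116) for the mix IV and -1.19 (0.416) for vancomycin IV.

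With zeros set to the limit of 3 reads, Mailhella was at 2.97 (0.105) for vancomycin IP, 0.38 for ampicillin PO, 1.14 for vancomycin PO, 0.94 for ampicillin IP, 1.06 for metronidazole IP and -0.23 for neomycin IV. Desulfovibrio was then at -1.42 (0.534) for ampicillin PO, -2.34 (0.286) for neomycin PO, 1.89 (0.294) for vancomycin PO, -1.28 (0.717) for ampicillin IV, -0.47 (0.838) for the mix IV and -1.62 (0.373) for vancomycin IV, and Bilophila at -0.34 (0.973) for ampicillin IP. With only the samples of both groups in the fit, Mailhella was at 3.06 (0.128) for vancomycin IP and passed as lower for ampicillin PO (-0.93, 0.0197) and vancomycin PO (-0.93, 0.00857), where every sample with antibiotic was at 0, and Bilophila was at -2.13 (0.220).

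On the centred log-ratio Mailhella was at 0.92 for ampicillin PO, 1.28 for vancomycin PO, 1.53 for ampicillin IP and 1.97 (0.0308) for the mix IV, Desulfovibrio at -0.44 (0.638) for ampicillin PO, -0.86 (0.378) for ampicillin IV, -0.61 (0.471) for the mix IV and -0.97 (0.252) for vancomycin IV, and Bilophila at -0.26 (0.872) for ampicillin IP. With a pseudocount of 0.001 Mailhella was at -1.10 for the mix PO and Desulfovibrio at 2.09 (0.138) for vancomycin PO. With 0.1 Desulfovibrio was at -0.83 (0.0642) for ampicillin PO, -0.96 (0.0776) for neomycin PO, -0.84 (0.0768) for ampicillin IV, -0.74 (0.0690) for the mix IV and -0.74 (0.0785) for vancomycin IV, and Bilophila at -0.59 (0.108).

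As a change within mice Desulfovibrio turned for vancomycin PO (-1.66, 0.303) and was at -2.07 (0.323) for ampicillin IV and -2.96 (0.0863) for vancomycin IV, Mailhella was at -1.30 for the mix PO and Bilophila at -3.39 (0.0758) for ampicillin IP. With at least 1000 reads on both days, a setting chosen after the data were seen, Mailhella was at 2.26 (0.245) for vancomycin IP and -1.15 for the mix PO, and Desulfovibrio at -4.16 (0.178) for neomycin PO, -1.26 (0.500) for vancomycin PO, again turned, -1.35 (0.515) for ampicillin IV, -2.0 (0.236) for the mix IV and -2.75 (0.0898) for vancomycin IV.

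The exact permutation test of mean percent called no result. Its differences in percentage points were 0.656 (0.143) and 0.232 (0.114) for Mailhella with vancomycin IP and IV, -0.148 (0.149), -0.159 (0.405), 0.200 (0.465), -0.0956 (0.149), -0.0875 (0.0649) and -0.0849 (0.149) for Desulfovibrio with ampicillin PO, neomycin PO, vancomycin PO, ampicillin IV, the mix IV and vancomycin IV, and -0.0748 (0.714) for Bilophila with ampicillin IP. Thinned to 1000 reads, Desulfovibrio was at -1.88 (0.177) for ampicillin PO, -1.88 (0.294) for neomycin PO, -1.91 (0.212) for ampicillin IV and -1.39 (0.311) for the mix IV. Thinning, and presence in 50% of samples, left no value for Mailhella and Bilophila. Without reagent, skin and food genera and taxa of no phylum, Desulfovibrio was at -1.70 (0.126) for ampicillin PO and 1.89 (0.0575) for vancomycin PO, and Bilophila at -2.13 (0.0552) for ampicillin IP. The Bilophila call was also lost with no presence filter (-2.13, 0.10), with run as a covariate (-1.68, 0.135) and in run ok122 alone (-2.13, 0.210).

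With 1 sample left out at a time, Mailhella ranged from 1.84 (0.0600, without vancomycin IP replicate 3) to 3.91 for vancomycin IP, from -0.33 to 1.21 for the mix IP and from -0.93 to 0.46 for the mix PO. Desulfovibrio ranged from -2.74 to -1.56 for ampicillin PO and from -3.25 to -2.20 for neomycin PO, both losing the call without PBS PO replicate 4, and from 1.57 to 2.62 for vancomycin PO. Bilophila ranged from -2.42 to -1.42 for ampicillin IP and lost the call in 4 of 7 fits. The replicate number as a block changed no call of a genus of the family. Family totals kept their call in 13 of 17 settings for neomycin PO, 11 of 17 for ampicillin PO and 5 of 17 for ampicillin IV. Depth limits all zeros.

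The differences between routes in the effect of vancomycin, in settings chosen after the data were seen, lost the call as follows. For Mailhella PO minus IP was -1.83 (0.795) with zeros at the limit, -2.76 (0.0881) on the centred log-ratio and -2.85 (0.245) within mice of at least 1000 reads, and PO minus IV was -1.84 (0.862) with zeros at the limit, -3.0 (0.113) in run ok122 alone and -3.21 (0.0994) within mice of at least 1000 reads. For Desulfovibrio PO minus IV was 3.50 (0.241) with zeros at the limit, 3.08 (0.128) in run ok122 alone, 1.3 (0.807) within mice and 1.49 (0.781) within mice of at least 1000 reads. With 1 sample left out at a time these kept their call, from -4.84 to -2.77, from -5.28 to -4.25 and from 3.94 to 4.99.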
